A study of Mus musculus with 12 samples.

Results

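The genes described here encode proteins that neutrophils store in their late granules or make late in their maturation, together with a surface protein and an enzyme of the same stage: Ltf, Ngp, Camp, Lcn2, Mmp8, Mmp9, Chil3, Cd177, Padi4 and Hp. They were taken by name, as every probe set of the array whose annotation gives exactly 1 gene symbol and that symbol is on this list. This gave 11 of 45037 probe sets for 10 of 18193 genes. Mmp9 had 2 probe sets and each other gene had 1, and Mmp9 is represented by the one whose mean over all arrays was higher. A further probe set, annotated to both Chil4 and Chil3, was not used.

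RNA was measured on 12 arrays, with 3 sorted samples in each of 4 groups, namely KI and WT ST-HSC and KI and WT GMP. KI mice are homozygous for PU.1 Q202L, a glutamine-to-leucine change in the Ets domain of the transcription factor PU.1 (gene Spi1) that was made to abolish its contact with c-Jun, and WT mice are wild-type littermates from crosses of heterozygous carriers. The allele is in the germline and so is present in every cell of the KI animals, which die at birth, and the study kept 2 founder lines without stating which line gave these samples. All samples are labelled as sorted newborn liver cells of strain C57Bl/6, collected at or shortly before birth and given no treatment, whereas the paper speaks of fetal liver and of a mixed strain background. Short-term hematopoietic stem cells (ST-HSC) were sorted as lin- Sca-1+ c-kit+ CD150- CD48+ by the sample labels, although the series title and the paper give CD48-. Granulocyte-macrophage progenitors (GMP) were sorted as lin- c-kit+ cells that lacked Sca-1 and carried CD34 and high FcgRII/III. The paper's results describe the KI cells as a GMP-like population with intermediate CD34, whereas its methods give a single GMP gate. KI and WT GMP may therefore differ in gate as well as in genotype, and these cannot be told apart here. Among transcripts of the gate markers, Cd34 was lower in KI in both populations (log2 difference KI minus WT of −2.87 in GMP, adjusted p = 6.98e-06, and −1.41 in ST-HSC, adjusted p = 0.00103). In GMP, a gate of intermediate CD34 would itself select for this. Slamf1, the gene of CD150, was higher in KI ST-HSC (1.92, adjusted p = 0.00132). Fcgr3, the gene of FcgRIII in the FcgRII/III marker of the GMP gate, was also higher in KI ST-HSC (1.68, adjusted p = 0.00165). Fcgr2b, the gene of FcgRII, went the other way and was not called (−1.30, adjusted p = 0.397, in ST-HSC and −2.13, adjusted p = 0.109, in GMP). Cd48 measured 11.58 to 12.06 in the ST-HSC arrays and 10.87 to 11.12 in the GMP arrays. It was not called in ST-HSC (0.16, adjusted p = 0.742) or GMP (−0.02, adjusted p = 0.981). RNA levels do not show which CD48 gate was used. Nothing in the labels says whether the 3 samples of a group are separate animals or pools. The noncoding RNA Xist differed within WT ST-HSC (11.74, 3.70 and 11.25), and likewise within WT GMP. The 3 WT samples of a population are therefore not all repeats of 1 sample. For KI the spread between arrays may be technical only, and the p-values rest in part on it.

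Neutrophils fill their granules in a fixed order as they mature. Primary granules with Mpo and Elane form first, in promyelocytes, which lie close to the GMP. Secondary (specific) granules with lactoferrin, cathelicidin and neutrophil collagenase follow in myelocytes and metamyelocytes, and gelatinase granules with Mmp9 form last. The secondary granule genes are transcribed together under C/EBP factors and depend on C/EBPε, and PU.1 binds regulatory DNA of many myeloid genes. Progenitors such as ST-HSC and GMP stand before this stage. In such a sorted, bulk sample, a low signal from fewer cells of a type and a low signal from less RNA per cell cannot be told apart.

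The bases before the start sites of 5 of these genes are shown, because 2 of them (Ltf and Chil3) carry the differences between KI and WT GMP, Lcn2 had the largest difference in ST-HSC, and Camp and Ngp varied together between arrays. RefSeq (GRCm38.p6) gave a promoter for 8 of the 10 genes, and Mmp9 and Hp were not matched. Each line runs 5′ to 3′ on the strand of the gene and holds the 250 bases up to the base before the start site. Capitals mark matches, on either strand, to 3 motifs. These are GAGGAA, the core of many PU.1 sites, TGANTCA, the AP-1 site of Jun and Fos proteins, and TTGCNNAA, a C/EBP site pattern. The matches share no letters with one another in these windows.
Ltf, chr9:111019042-111019291, + strand: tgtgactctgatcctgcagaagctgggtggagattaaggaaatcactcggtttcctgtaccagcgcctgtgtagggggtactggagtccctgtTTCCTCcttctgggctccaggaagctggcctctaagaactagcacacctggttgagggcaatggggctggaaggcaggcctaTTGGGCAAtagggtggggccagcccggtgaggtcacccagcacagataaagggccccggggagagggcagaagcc
Chil3, chr3:106167565-106167814, - strand: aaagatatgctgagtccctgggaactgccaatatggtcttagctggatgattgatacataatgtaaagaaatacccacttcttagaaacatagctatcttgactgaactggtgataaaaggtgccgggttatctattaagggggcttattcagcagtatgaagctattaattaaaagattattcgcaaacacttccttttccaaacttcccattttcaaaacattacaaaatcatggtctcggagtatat
Lcn2, chr2:32387740-32387989, - strand: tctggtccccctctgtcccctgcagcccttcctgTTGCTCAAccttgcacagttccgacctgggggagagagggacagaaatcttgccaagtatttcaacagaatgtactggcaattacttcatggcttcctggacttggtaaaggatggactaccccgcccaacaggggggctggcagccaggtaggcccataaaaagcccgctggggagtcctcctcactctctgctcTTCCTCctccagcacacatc
Ngp, chr9:110419558-110419807, + strand: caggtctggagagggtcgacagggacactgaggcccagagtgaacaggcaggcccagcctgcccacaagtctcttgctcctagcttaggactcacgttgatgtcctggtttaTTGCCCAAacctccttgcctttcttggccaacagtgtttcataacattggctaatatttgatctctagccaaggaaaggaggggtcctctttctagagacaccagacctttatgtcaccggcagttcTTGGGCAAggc
Camp, chr9:109849457-109849706, - strand: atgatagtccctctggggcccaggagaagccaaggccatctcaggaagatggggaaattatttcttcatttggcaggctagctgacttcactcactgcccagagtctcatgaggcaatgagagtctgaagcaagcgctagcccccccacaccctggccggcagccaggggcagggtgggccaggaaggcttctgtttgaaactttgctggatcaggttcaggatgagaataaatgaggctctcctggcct

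Of the 8 promoters, 4 held the C/EBP letters, 4 held the PU.1 core and 1 held the AP-1 letters. Over 32851 mouse promoters of the same length, 9.56% held the C/EBP letters, 23.3% the PU.1 core and 6.75% the AP-1 letters. Ltf held a C/EBP match at bases −75 to −68 and a PU.1 core at −157 to −152. Lcn2 also held both, with its PU.1 core at −20 to −15 and its C/EBP match at −216 to −209, and so did Mmp8, at −219 to −214 for PU.1 and −19 to −12 for C/EBP. Ngp held 2 C/EBP matches, at −138 to −131 and −11 to −4, and no PU.1 core. Cd177 held only a PU.1 core (−192 to −187) and Padi4 only the AP-1 letters (−54 to −48). Camp and Chil3 held none of the 3 sets of letters in this window, which does not cover distal sites. Letters alone do not show that a factor binds. Ltf, Ngp, Camp and Mmp8 all lie on chromosome 9, and Lcn2, Chil3, Padi4 and Cd177 lie on chromosomes 2, 3, 4 and 7.

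Levels are log2 RMA values, and a difference of 1 on this scale is a change of 2-fold. KI minus WT was tested within each population with limma in 1 fit of all 12 arrays, with Benjamini-Hochberg adjustment over 45037 probe sets, and a gene is called at an adjusted p under 0.05. Intervals are 95% intervals of the fit and are not adjusted. In GMP, 2 of the 10 genes were called lower in KI, namely Ltf and Chil3, and 0 were called higher, against 1.4% of all genes called lower and 1.19% called higher. In ST-HSC, 0 genes were called in either direction by limma, against 1.33% of all genes called higher and 1.68% called lower. At an unadjusted p of 0.05 in the same fit, 3 of the 10 passed (Lcn2 and Hp with KI above WT, Padi4 with KI below). The share of all genes at that unadjusted cut was not counted. The median difference of the 10 genes was −0.01 in GMP and −0.28 in ST-HSC, beside −0.03 and −0.02 over all genes. The genes are described one by one, beginning with the called ones.

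**Figure D1:**
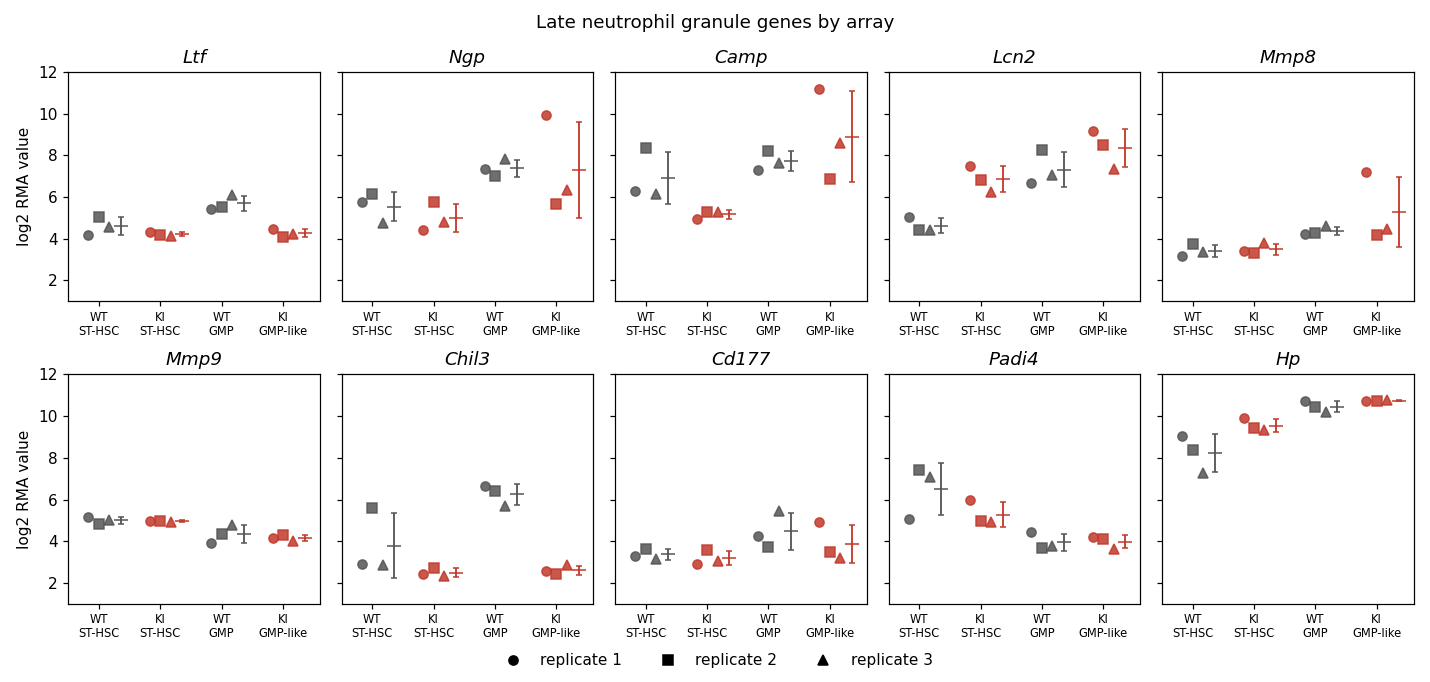
Log2 RMA value (vertical axis) of each of the 10 genes in each of the 12 arrays, by group (horizontal axis), with 1 symbol per replicate number and the mean and SD of each group beside them. Chil3 and Ltf are lower in all 3 KI GMP arrays than in all 3 WT GMP arrays, and in KI GMP the array of replicate 1 stands above the others for Camp, Ngp and Mmp8.

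Ltf encodes lactoferrin, the iron-binding protein that marks secondary granules. Its log2 value was 5.44, 5.52 and 6.11 in the WT GMP arrays and 4.48, 4.10 and 4.20 in the KI GMP arrays. All KI arrays lay below all WT arrays, and the KI GMP values were near those of the ST-HSC arrays. The difference was −1.43 (SE 0.236, interval −1.95 to −0.91, adjusted p = 0.0127), a fall of 2.70-fold. In ST-HSC, Ltf was 4.18, 5.03 and 4.58 in WT and 4.31, 4.16 and 4.14 in KI, and these groups overlapped (−0.39, interval −0.91 to 0.13, adjusted p = 0.563). Ltf exceeded a log2 value of 6 in 1 of the 12 arrays, so that the called difference is at the low end of the scale. The call was lost when only the 6 GMP arrays were fitted (adjusted p = 0.0698).

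Chil3 (Ym1) encodes a chitinase-like protein that neutrophils store in granules and that alternatively activated macrophages also make. In WT GMP it measured 6.65, 6.39 and 5.70, and in KI GMP 2.55, 2.44 and 2.85. The groups lay far apart, with little spread in either. Chil3 was lower in KI, with a log2 difference of −3.64 (SE 0.602, interval −4.97 to −2.30, adjusted p = 0.0132). The KI values lay far below the medians of the GMP arrays (4.70 to 4.79), where RMA compresses differences, so that the size of the difference is uncertain. The call was lost without WT GMP replicate 1 (adjusted p = 0.0526). In ST-HSC the WT arrays held 2.90, 5.60 and 2.87 and the KI arrays 2.44, 2.74 and 2.31. Replicate 2 of WT ST-HSC stood 2.69 above the next array, and without it the difference in ST-HSC went from −1.29 (interval −2.63 to 0.04, adjusted p = 0.399) to −0.39 (adjusted p = 0.682). Of 11 macrophage markers, 2 were called lower in KI GMP, 0 were called higher and 9 did not pass, with a median of −0.67. The mean log2 value of these markers was 3.96 to 4.19 in the KI GMP arrays and 5.25 to 5.73 in the WT GMP arrays. The called ones were Mpeg1 and Csf1r: Mpeg1, the pore-forming perforin-2 of phagocytes, fell by 4.86 (adjusted p = 0.000167) and Csf1r, the receptor for macrophage colony-stimulating factor, fell by 3.92 (adjusted p = 0.0409). Adgre1, an adhesion receptor of macrophages, had the next smallest adjusted p (−1.15, adjusted p = 0.148). Csf1r and Mpeg1 were also high in the WT ST-HSC arrays (10.88 to 11.55 and 10.66 to 12.12), so that the list mean is no measure of macrophages alone. The part of macrophages in the level of Chil3 was not tested.

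Among the genes of the list, Ltf and Chil3 were thus the only ones in which all KI GMP arrays lay below all WT GMP arrays, 2 of 10 beside 11.1% of all genes. KI GMP lay wholly above WT GMP for 0 of 10, beside 8.26% of all genes. The other 8 overlapped.

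**Figure D2:**
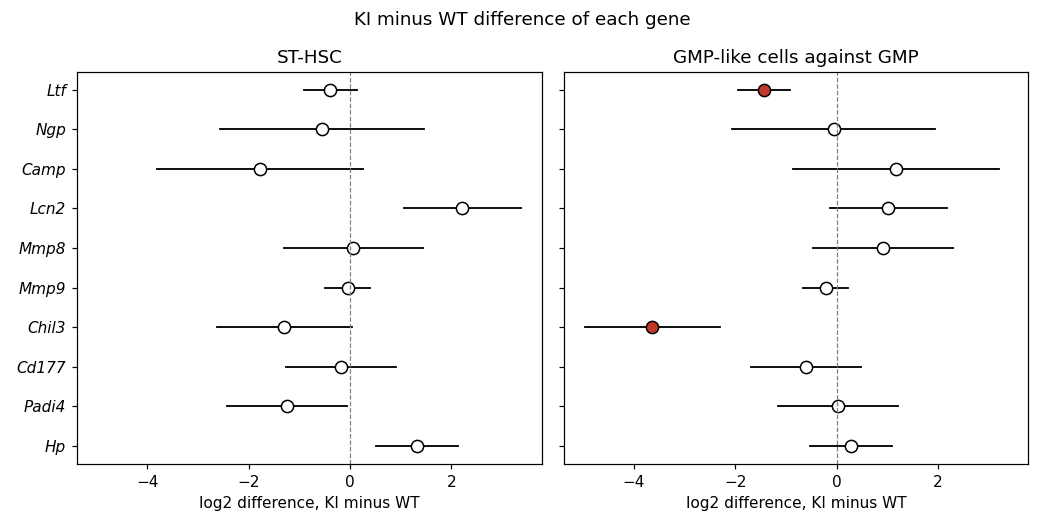
Difference KI minus WT on the log2 scale (horizontal axis) for each gene (vertical axis) in ST-HSC and in GMP, with points for the limma estimate, filled where the gene was called, bars for its 95% interval and a broken line at 0. In GMP the intervals of Ltf (−1.95 to −0.91) and Chil3 (−4.97 to −2.30) lie below 0, and in ST-HSC those of Lcn2 (1.07 to 3.37) and Hp (0.51 to 2.13) lie above it and that of Padi4 (−2.43 to −0.05) below it.

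Camp encodes cathelicidin, the precursor of an antimicrobial peptide, and Ngp the neutrophilic granule protein, a member of the cystatin superfamily. Camp measured 7.27, 8.21 and 7.64 in WT GMP and 11.19, 6.86 and 8.58 in KI GMP. Ngp measured 7.33, 6.99 and 7.80 in WT GMP and 9.94, 5.67 and 6.33 in KI GMP. For both, the KI GMP arrays lay on either side of the WT GMP arrays, and the KI group had the wider spread (SD 2.18 against 0.474 for Camp and 2.30 against 0.406 for Ngp, n = 3 each). Neither difference was called (Camp 1.17, interval −0.87 to 3.20, adjusted p = 0.660, and Ngp −0.06, interval −2.07 to 1.95, adjusted p = 0.990), and the intervals leave room for changes of several-fold in either direction.

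In ST-HSC, Camp was lower in every KI array (4.93, 5.30 and 5.26) than in every WT array (6.30, 8.37 and 6.13). The difference of −1.76 was not called (SE 0.919, interval −3.80 to 0.27, adjusted p = 0.472), and without WT replicate 2 it was −1.05 (adjusted p = 0.797). Ngp overlapped in ST-HSC, at 5.74, 6.13 and 4.74 in WT and 4.43, 5.75 and 4.78 in KI (−0.55, adjusted p = 0.880).

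Mmp8, the neutrophil collagenase of secondary granules, followed Camp and Ngp in KI GMP. Its values there were 7.20, 4.19 and 4.45, beside 4.23, 4.28 and 4.60 in WT GMP. A single array therefore carried the difference of 0.91 (interval −0.46 to 2.29, adjusted p = 0.587), which was −0.05 without that array. In ST-HSC Mmp8 was between 3.19 and 3.79 in all 6 arrays (0.07, adjusted p = 0.979). Mmp9, the gelatinase of the last granules to form, was between 3.93 and 5.16 in the 12 arrays and did not exceed 6 in any. Its differences were −0.21 in GMP (interval −0.65 to 0.23, adjusted p = 0.733) and −0.04 in ST-HSC (interval −0.48 to 0.40, adjusted p = 0.964), and the other probe set of Mmp9 gave −0.06 and −0.27 (adjusted p = 0.950 and 0.675).

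Lcn2 encodes lipocalin 2, which binds bacterial siderophores and is stored in secondary granules, and hepatocytes also make it in the acute phase. It measured 7.49, 6.79 and 6.24 in KI ST-HSC and 5.03, 4.42 and 4.42 in WT ST-HSC. Each KI array was above each WT array. The difference of 2.22, or 4.66-fold, was the largest of the 10 genes in ST-HSC and missed the threshold (SE 0.520, interval 1.07 to 3.37, adjusted p = 0.0593). It passed in a fit of the 6 arrays of this population alone (adjusted p = 0.0375), and without KI GMP replicate 1 (adjusted p = 0.0470), KI GMP replicate 3 or WT GMP replicate 2 (adjusted p = 0.0371 each), which enter the shared estimate of the spread. Over all alternatives it was called in 7 of 22, and it was not called with the replicate block (adjusted p = 0.0850), with Xist as a covariate (adjusted p = 0.200), by the methods' t-test (adjusted p = 0.217) or without any single ST-HSC array (for example adjusted p = 0.200 without KI ST-HSC replicate 1). In GMP, Lcn2 was 9.15, 8.50 and 7.35 in KI and 6.65, 8.27 and 7.03 in WT, with overlap (1.02, interval −0.13 to 2.17, adjusted p = 0.421).

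Hp encodes haptoglobin, which binds free hemoglobin, is a plasma protein of hepatocytes and is also stored in neutrophil granules. Its values ran from 7.28 to 10.77. In KI ST-HSC it was 9.90, 9.41 and 9.33, and in WT ST-HSC 9.05, 8.36 and 7.28. The groups were apart, and the difference of 1.32 (2.50-fold, SE 0.364, interval 0.51 to 2.13) was not called (adjusted p = 0.114), though it was without WT ST-HSC replicate 1 (adjusted p = 0.0195). In GMP the arrays were close together, at 10.74, 10.72 and 10.77 in KI and 10.74, 10.44 and 10.19 in WT (0.28, interval −0.52 to 1.09, adjusted p = 0.824). Hepatocytes make both Hp and Lcn2, and the mean log2 value of 11 hepatocyte markers was 4.94 to 5.18 in KI ST-HSC and 5.30 to 5.94 in WT ST-HSC. Of these genes 1, Afp (alpha-fetoprotein), was called lower in KI ST-HSC (−1.53, adjusted p = 0.00582) and 0 were called higher, and Alb was −1.60 (adjusted p = 0.282) and Apoa1 −1.35 (adjusted p = 0.262). In GMP the list mean was 4.70 to 5.02 in KI and 4.86 to 5.73 in WT, which overlap, and again Afp alone was called (−1.92, adjusted p = 0.0021). The part of liver cells in the levels of Hp and Lcn2 was not tested.

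KI ST-HSC lay wholly above WT ST-HSC for 2 of the 10 genes, Lcn2 and Hp, beside 10.9% of all genes, and wholly below it for 2, Camp and Chil3, beside 11.2%. The remaining 6 overlapped.

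Padi4 and Cd177 are not among the soluble contents of granules. Padi4 encodes the peptidylarginine deiminase that citrullinates histones when neutrophils release extracellular traps. It was 5.08, 7.40 and 7.07 in WT ST-HSC and 5.97, 4.95 and 4.92 in KI ST-HSC, so that WT replicate 1 and the KI arrays overlapped (−1.24, interval −2.43 to −0.05, adjusted p = 0.361). With WT replicate 1 left out, the same difference was called lower in KI (adjusted p = 0.0218). In GMP all values were low, between 3.63 and 4.43, and the difference was 0.03 (interval −1.16 to 1.22, adjusted p = 0.991). Cd177, a surface glycoprotein of neutrophils that is also held in the membrane of specific granules, had values of 2.92 to 3.64 in ST-HSC and 3.20 to 5.45 in GMP, with overlap in both (−0.18, adjusted p = 0.936, and −0.61, adjusted p = 0.672).

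Whether the KI minus WT difference itself differed between GMP and ST-HSC was tested for each gene, and 0 of 10 were called by limma, beside 0.0495% of all genes called in either direction. At an unadjusted p of 0.05, 3 genes passed: Ltf (−1.04, adjusted p = 0.406), Chil3 (−2.34, interval −4.23 to −0.46, adjusted p = 0.499) and Camp (2.93, interval 0.06 to 5.81, adjusted p = 0.624). The share of all genes that pass this unadjusted cut was not counted, so that the 0.0495% is no measure for these 3. Without WT ST-HSC replicate 2, the array in which Chil3 stood high, the value for Chil3 was −3.25 and was called (adjusted p = 0.0126). The other 9 genes were not called under that setting. This test treats ST-HSC and GMP arrays as independent, although same-numbered samples may come from the same animals.

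The spread within groups had a pattern of its own. In KI GMP, replicate 1 was the highest of the 3 arrays for 7 of the 10 genes and the lowest for 0. It exceeded the next array by 3.61 for Ngp, 2.75 for Mmp8, 2.61 for Camp and 1.44 for Cd177. Ltf was higher there as well, by less (4.48 beside 4.20), and Chil3 was not (2.55 beside 2.85). The same array was the highest of its group for 11 of 13 other late neutrophil genes, a list with S100a8, S100a9, Fcnb and the stefin gene Stfa2l1, and its mean over that list was 8.40, beside 7.39 and 7.18 in replicates 2 and 3 and 7.87 to 7.99 in WT GMP. As examples chosen after their values were seen, S100a9, a subunit of calprotectin, was 12.52, 11.01 and 10.75 in KI GMP, and Stfa2l1 was 8.97, 4.72 and 6.29. What set this array apart was not tested.

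Without KI GMP replicate 1, the differences in GMP were −1.37 for Ngp (adjusted p = 0.221), 0.01 for Camp (adjusted p = 0.998), −0.05 for Mmp8 (adjusted p = 0.967) and −1.13 for Cd177 (adjusted p = 0.264). Ltf and Chil3 stayed called, at −1.54 (adjusted p = 0.0225) and −3.61 (adjusted p = 0.0371). Lcn2 in ST-HSC, whose error comes from the same fit, had an adjusted p of 0.0470 there.

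**Figure D3:**
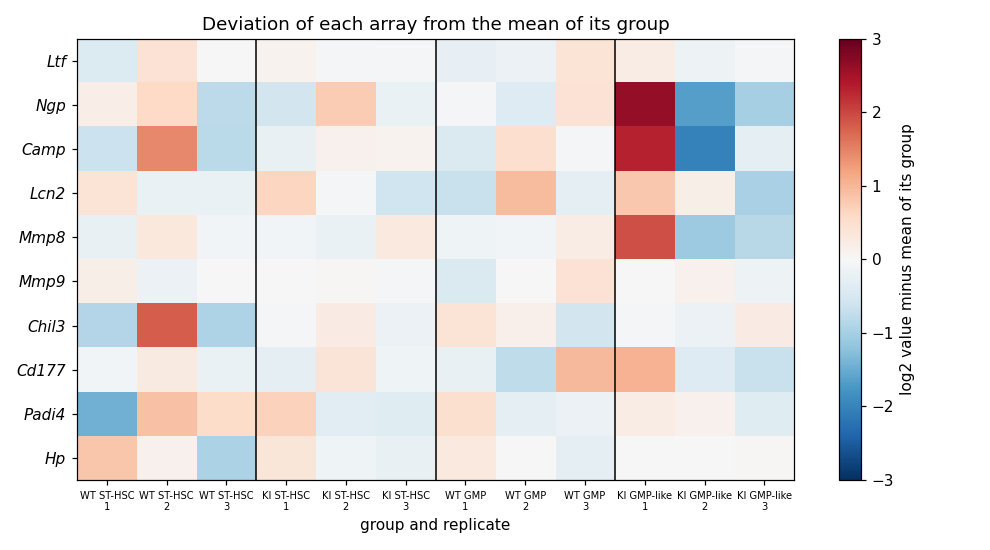
Log2 value minus the mean of its group, as colour, for each gene (rows) in each array (columns, with the group and the replicate number). Replicate 1 of KI GMP is above its group for Camp, Ngp, Mmp8 and Cd177, and replicate 2 of WT ST-HSC is above its group for Chil3 and Camp.

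As a description over the 12 arrays, the deviations from the group means had a Pearson r of 0.90 for Ngp with Mmp8, 0.86 for Camp with Mmp8 and 0.85 for Ngp with Camp. Much of this rests on the KI GMP arrays: over the 9 arrays of the other groups r was 0.19, 0.59 and 0.47. Ngp with Cd177 was 0.81 over all arrays and 0.71 over those 9. These points share an array, its RNA amplification and its normalization, and the lowest of the 45 pairs was Mmp9 with Chil3 at −0.58.

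In WT ST-HSC, replicate 2 was the highest array for 7 of the 10 genes and the lowest for 2. It stood 2.69 above the next array for Chil3 and 2.07 above it for Camp. That array also differs from the others of its group in Xist, a noncoding RNA of X inactivation: Xist was 11.74 and 11.25 in replicates 1 and 3 and 3.70 in replicate 2, and WT GMP had the same pattern (10.67 and 11.01, beside 3.46), whereas all KI arrays were between 2.98 and 3.78. Sex is not on the labels, and the WT groups therefore differ from the KI groups in Xist as well as in genotype. With the Xist level as a covariate, Ltf (−1.58, adjusted p = 0.0363) and Chil3 (−4.67, adjusted p = 0.0044) stayed called in GMP. Without the 4 WT arrays of high Xist, which leaves 1 WT array a population that is assumed to vary like the other groups, Chil3 was called in GMP (−3.78, adjusted p = 0.00444) and in ST-HSC (−3.10, adjusted p = 0.00348), and Ltf in GMP was not (−1.26, adjusted p = 0.0607).

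Levels in GMP and ST-HSC are set side by side without a test, because the arrays of these populations have different medians (5.00 to 5.10 in ST-HSC and 4.70 to 4.79 in GMP). In WT, all GMP arrays were above all ST-HSC arrays for 7 genes: Lcn2 (by 2.69 between the means), Chil3 (2.46), Hp (2.23), Ngp (1.83), Ltf (1.10), Cd177 (1.10) and Mmp8 (0.94). Camp overlapped (0.78). In KI this was so for 3 genes, Camp (3.71), Mmp8 (1.79) and Hp (1.19), and 5 overlapped: Ngp (2.33), Lcn2 (1.50), Cd177 (0.68), Chil3 (0.11) and Ltf (0.05). The KI means of Ngp, Lcn2 and Cd177 were still higher in GMP. Ngp had the wider spread in KI GMP (SD 2.30, beside 0.406 in WT GMP). The share of all genes separated in this way was not counted, in either direction. Ltf and Chil3 had nearly the same signal in KI GMP as in KI ST-HSC. In the KI arrays these signals lay below the array medians (Ltf 4.10 to 4.48, Chil3 2.31 to 2.85), where RMA compresses differences. A difference in transcript level between the populations could therefore be missed. Padi4 and Mmp9 went the other way in both genotypes, with all GMP arrays below all ST-HSC arrays (Padi4 by −2.56 in WT and −1.29 in KI, Mmp9 by −0.63 and −0.80).

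**Figure D4:**
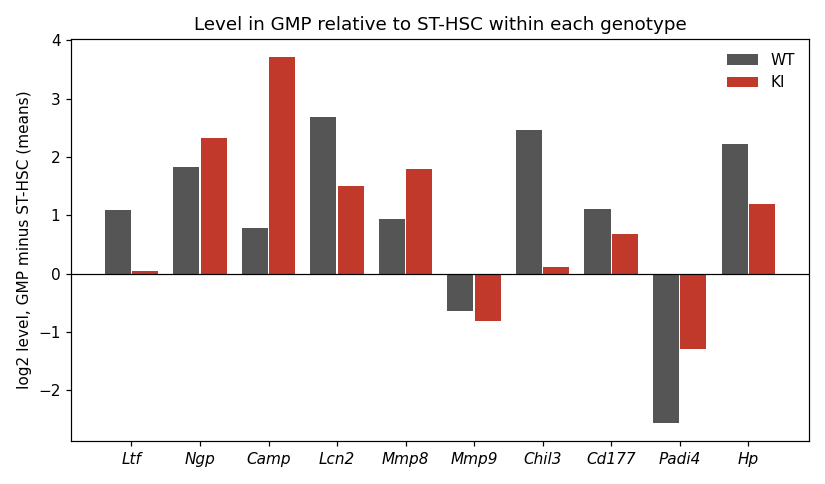
Mean log2 level in GMP minus mean log2 level in ST-HSC (vertical axis) for each gene (horizontal axis), as 1 bar each for WT and KI (3 arrays per mean, no error shown and no test made). The WT bars of Ltf (1.10) and Chil3 (2.46) have KI bars near 0 (0.05 and 0.11) beside them, from KI signals below the array medians.

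By their order in WT GMP, Hp (mean 10.46, SD 0.277, n = 3 as for all these means) led, and Camp (7.71, SD 0.474), Ngp (7.37, SD 0.406) and Lcn2 (7.31, SD 0.846) followed. Chil3 (6.25, SD 0.490) and Ltf (5.69, SD 0.366) came next, and Cd177 (4.47, SD 0.887), Mmp8 (4.37, SD 0.198), Mmp9 (4.36, SD 0.432) and Padi4 (3.96, SD 0.411) were low. Probe sets bind with different strength, so this order is one of signals and not of transcript amounts.

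Other genes of the neutrophil program were read from lists beside the 10 genes. Of the primary granule proteins, 0 of 5 measured were called in GMP or in ST-HSC. In GMP, Elane (neutrophil elastase) was −1.61 (interval −2.55 to −0.68, adjusted p = 0.0865) and Prtn3 (proteinase 3) −1.10 (adjusted p = 0.112), while Mpo (myeloperoxidase) was −0.07 (adjusted p = 0.881), and the list mean was 11.5 to 11.9 in KI and 12.2 to 12.3 in WT. In ST-HSC, Ctsg (cathepsin G) was 1.03 (adjusted p = 0.0616). The median of the 5 was −0.07 in GMP and −0.23 in ST-HSC.

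Of 13 other late neutrophil genes, 1 was called higher in KI ST-HSC, Anxa1 (annexin A1, 1.16, adjusted p = 0.0106), and 0 were called lower. In GMP 0 were called, with Anxa1 at 0.81 (adjusted p = 0.0626), Fcnb, a ficolin of the lectin complement pathway, at −2.26 (adjusted p = 0.193) and Pglyrp1, a peptidoglycan recognition protein, at −0.52 (adjusted p = 0.236). The medians were −0.04 in ST-HSC and −0.06 in GMP.

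Of 10 regulators of granulocyte differentiation, KI ST-HSC had 1 called on each side of WT, and KI GMP had 1 called below WT and 0 above. Irf8, which favors monocytes over granulocytes, fell by 6.30 in KI ST-HSC (adjusted p = 3.66e-05) and by 3.18 in KI GMP (adjusted p = 0.00291). Cebpa, the C/EBP factor of the GMP stage, rose by 1.21 in KI ST-HSC (adjusted p = 0.0305) and was 0.61 in GMP (adjusted p = 0.278). Klf5 was 1.23 in ST-HSC (adjusted p = 0.173) and 1.41 in GMP (adjusted p = 0.101). Spi1 itself did not pass in either (0.17, adjusted p = 0.798, and 0.39, adjusted p = 0.384), and the array does not tell the mutant transcript from the wild-type one. Genes of mast cells, basophils and eosinophils, granulocytes of other lineages, had 3 of 6 called higher in KI ST-HSC and 0 lower, Cpa3 (2.69, adjusted p = 0.00062), Hdc (2.24, adjusted p = 0.0236) and Mcpt8 (1.57, adjusted p = 0.0470). Ms4a2, the beta chain of the IgE receptor, went the other way in ST-HSC and was not called (−2.51, adjusted p = 0.196). In GMP, Cpa3 was higher (1.57, adjusted p = 0.0157) and Ms4a2 was lower (−5.21, adjusted p = 0.0106).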

How the data were processed

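RNA of 12 sorted liver samples was hybridized to Affymetrix MG430 v2 arrays, 1 array per sample. The authors amplified 10 ng of RNA, labelled it with biotin and deposited log2 values of 45101 probe sets, made by RMA in R-Bioconductor (version not given in the sources used here). RMA aligns the distributions of the arrays and compresses differences at low signal. Arrays have no read depth, so their number limits the precision.

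The 64 array controls were dropped, and the other 45037 probe sets were tested with no filter in limma 3.58.1 (R 4.3.3; lmFit, eBayes) with 4 group means, 8 residual and 2.52 prior degrees of freedom, and Benjamini-Hochberg adjustment. The fit was tested on simulated data. With 3 arrays against 3, an exact two-sided permutation test cannot go below p = 0.1, so none was used. Platform annotation gave 34945 probe sets 1 symbol, 932 several and 9160 none. A gene is represented by its probe set with the highest mean.

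The members, lists and alternatives were chosen with earlier results of these data known. Named are all members, Spi1, Xist, up to 3 genes per list and comparison with the smallest adjusted p, and the 5 genes most like the members. Fcgr2b and Ms4a2, named by this rule in GMP, are also given in ST-HSC. Cd48 is given because the labels and the paper differ on it. Examples outside this rule are marked as chosen after their values were seen. Not matched on the lists were Prss57, Retnlg, Mmp25, Ly6g, Fpr1, Stfa1, Stfa2, Cebpe, Trf, Prss34 and Ly6a. Groups follow the sample titles. Alternatives were a fit of 6 arrays, centring, quantile normalization, a filter (log2 of 6 in 3 arrays), trend and robust eBayes, a replicate block, gene means, the methods' t-test, Xist, and leaving out each array. SAM, used by the authors, was not run.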

Additional observations from a re-analysis of the deposited data

How the results depend on the processing

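Of 622 alternative values of single genes, 578 kept their direction and side of the threshold, 11 passed it, 6 lost it and 27 reversed. Genes called higher in KI ST-HSC went from 0 to 1 with only the 6 arrays, the filter, trend and robust eBayes or gene means (Lcn2, adjusted p from 0.0324 to 0.217 over all alternatives), and were 0 to 1 when single arrays were left out. Genes called lower in KI ST-HSC went from 0 to 1 without the WT arrays of high Xist (Chil3), and were 0 to 1 when single arrays were left out. Without WT ST-HSC replicate 1, Hp was called higher in KI ST-HSC (adjusted p = 0.0195) and Padi4 lower (adjusted p = 0.0218). Genes called lower in KI GMP went from 2 to 1 with only the 6 arrays, without the high-Xist arrays or with the replicate block (Ltf adjusted p = 0.0675), and to 0 with the filter, which Ltf and Chil3 do not pass, or with the methods' t-test (adjusted p = 0.267 for Ltf and 0.139 for Chil3, with 2 lower at its unadjusted threshold). They were 1 to 2 when single arrays were left out, since Chil3 was lost without WT GMP replicate 1 (adjusted p = 0.0526). Genes called for the difference between populations were 0 to 1 when single arrays were left out. The median in ST-HSC went from −0.28 to −0.64 without the high-Xist arrays, and that in GMP was −0.16 to 0.24 when single arrays were left out.

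Reversals concerned uncalled values. Padi4 in GMP was −0.0027 with centred arrays and −0.33 with Xist as a covariate, and the Mmp9 difference between populations was 0.022 with gene means. With the Xist covariate, ST-HSC differences were −0.019 for Mmp8, 0.068 for Mmp9 and 0.086 for Cd177. Without the high-Xist arrays they were −0.25 for Mmp8 and 0.14 for Mmp9, and GMP differences were 0.32 for Ngp and 0.15 for Cd177, whose difference between populations was 0.60. When single arrays were left out, the ranges that crossed 0 were, in ST-HSC, −0.078 to 0.23 for Mmp8 and −0.13 to 0.042 for Mmp9, in GMP, −0.049 to 1.46 for Mmp8, −0.11 to 0.27 for Padi4, −1.37 to 0.76 for Ngp and −0.43 to 0.0039 for Mmp9, and for the difference between populations, −0.82 to 1.32 for Ngp, −0.12 to 1.39 for Mmp8, −0.39 to 0.045 for Mmp9 and −0.95 to 0.063 for Cd177. The cause of these changes was not tested.

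Only Ngp, Camp, Lcn2 and Hp pass the filter. The other 6 genes were under a log2 of 6 in most arrays, where signals are weak. Chil3 and Padi4 reached it in 2 arrays each, Ltf and Mmp8 in 1 each, and Mmp9 and Cd177 in 0. Same-numbered KI and WT arrays had deviations correlated at 0.07, 0.06 and 0.03 in ST-HSC and at −0.01, −0.04 and −0.00 in GMP. A shared number was therefore not treated as a pair of a KI and a WT array. Whether a number marks the same animals in ST-HSC and GMP was not tested. In WT, Xist was high in replicates 1 and 3 and low in replicate 2 of both populations. The fit treats all 12 arrays as independent.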

Other observations

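Over the 12 arrays, the genes outside the list whose log2 value correlated most closely with the mean of the 10 centred genes were Cemip (Pearson r = 0.92), Tead1 (0.92), Epha10 (0.92), Zfp365 (0.91) and Apobec4 (0.91). None of the 5 was called for KI minus WT in ST-HSC or GMP, with differences from −0.30 to 0.09, and the likeness was measured over arrays that share their amplification and normalization.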
